A study of Sus scrofa with 48 samples.

Results

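The 24 pigs of the high RFI line were compared by diet, 12 fed the HF diet against 12 fed the LF diet, within a series of 48 pigs. Residual feed intake (RFI) is the gap between the feed a pig eats and the feed its growth and upkeep predict, so a pig with high RFI (RFIpl in the sample titles) converts its feed less efficiently. The pigs were chosen by their titles alone. All were Large White barrows from a line divergently selected for RFI, ate without restriction, and were 132 days old. The HF diet was rich in fat (rapeseed and soybean oils) and in fiber from wheat straw, and the LF diet was low in both and rich in cereal starch, so the groups differed in fat, fiber and starch at the same time and the 3 cannot be told apart. The paper reports that HF pigs also ate less, were lighter at the end and had less perirenal fat for their weight. These differences cannot be told apart from diet composition here either. The other 24 pigs were the HF and LF groups of the low RFI line (RFIneg), 12 each, of the same age and sampled at the same site, and they enter only where the diet difference is set against that of the high RFI line. The tissue was perirenal fat (PRAT), which surrounds the kidney, and it was measured with 1 one-colour array per pig.

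Adipose tissue of pigs makes much of its own fatty acid from glucose. Glucose enters through transporters such as SLC2A4, is split to pyruvate by glycolysis, and is carried into mitochondria, where the pyruvate dehydrogenase complex makes the acetyl unit that leaves again as citrate. ACLY cleaves that citrate in the cytosol, ACACA makes malonyl-CoA, FASN builds palmitate, and ELOVL6 and SCD lengthen and desaturate it, with reducing power from ME1 and the pentose phosphate enzymes. Starch and insulin are known to raise this route through the factors MLXIPL (also named ChREBP) and SREBF1, and dietary fat is known to lower it.

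Each level below is the log2 of a spot's signal minus the median of its array, 0 being the middle probe of that array, and each difference is the HF mean minus the LF mean in the high RFI line, also in log2 units. A gene was read from 1 probe, the one with the highest mean, and the level of one probe is never set against that of another. A gene was called at a raw p under 0.01, a fold over 1.1 and a Benjamini-Hochberg (BH) p under 0.08 over all 40510 probes tested (limma). The words rose and fell are kept for called genes. In bulk tissue, fewer cells of a type and less RNA per cell cannot be told apart.

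The tissue label was borne out by adipocyte markers, of which 9 of 10 were tested: ADIPOQ, the hormone adiponectin, lay between 9.91 and 10.5 above the array median in all 24 pigs, and FABP4, a fatty acid carrier, between 10.54 and 10.98. The arrays lay on 6 slides and were scanned on 2 days, with 2 arrays of each group on every slide and 6 on each day. Median signals of the 24 arrays ran from 121 to 168, and 38875 to 47814 probes were well above background.

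Some arrays carried liver transcripts, and they were unevenly spread over the diets. The mean over 16 tested liver markers (of 19 listed after the data were seen, among them albumin and transthyretin) lay between 0.07 and 1.57 in the HF pigs. LF pigs 11, 3, 7 and 4 stood apart at 7.16, 5.34, 5.05 and 3.47, and 6 of the 12 LF pigs lay above every HF pig. ALB, the gene of albumin, reached 9.11 in an LF pig and 2.32 at most in an HF pig. None of the 16 markers was called, 12 had a raw p under 0.05, and their median difference was -1.77, which became -0.12 without those 4 pigs. The 4 were picked as the LF pigs highest in these same markers, so a smaller difference was built in. Arrays of this kind occurred in both groups of the low RFI line too. Many results are given with and without the 4 pigs, and where the transcripts came from was not tested. The repeats hold fewer LF pigs, so a lost call does not by itself show that a result rested on these 4.

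**Figure D1:**
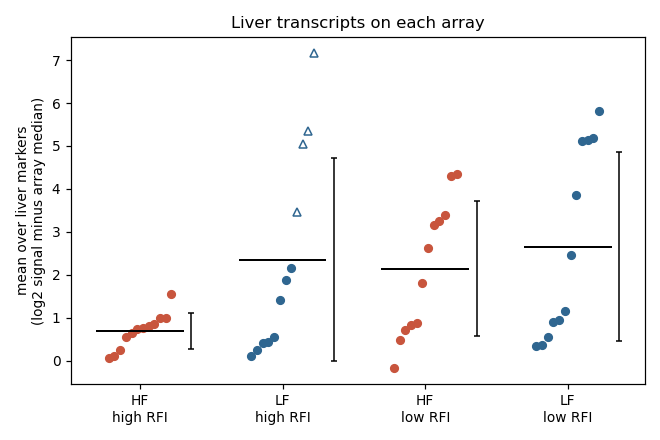
Mean level of 16 liver markers (log2 signal minus array median) on each of the 48 arrays, by diet and line; horizontal bars are group means, vertical bars the SD, and open triangles the 4 LF pigs of the high RFI line that are left out in the repeats. These 4 lie between 3.47 and 7.16, whereas the 12 HF pigs of the same line stay at or below 1.57.

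Diet was associated with many differences of small size. Of 40510 probes, 6121 (15.1%) were called, 1932 (4.77%) higher on HF and 4189 (10.3%) lower. Among 10479 named genes, 1711 (16.3%) were called, 277 (2.64%) higher and 1434 (13.7%) lower, and the median difference of all genes was -0.05. The median fold of a called probe was 1.22, and 24 genes, 2 higher and 22 lower, passed a fold of 2. The balance of directions depended on how arrays were centred: 31.6% of called probes were higher on HF with the median, 52.8% with the 75th percentile and 28.7% with the spike-in controls. Among genes, 502 were called higher and 923 lower with the 75th percentile, so lower calls outnumbered higher ones among named genes under both. Fewer genes than the 1434 were also called lower with quantile (959), processed-signal (1008), normexp (956) and spike-in scaling (757). Counts of lists under these scalings therefore stand against a smaller background. Without the 4 liver-rich LF pigs, 108 genes were called higher and 1399 lower, and 1200 of the 1711 calls were kept. Within scan day 1, 2080 probes were called, and within scan day 2, 9. All 6121 called probes had the same sign on both days, but they were called from both days pooled, which favours that outcome. The differences were larger on day 1 (median size 0.33 against 0.25 over those probes), although no probe passed a BH p of 0.08 for a diet difference that varied with the day (71 had a raw p under 0.01).

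Only 3 of the 10479 genes (0.0286%) had HF and LF pigs that did not overlap at all, 1 higher on HF (0.00954%) and 2 lower (0.0191%). LINS1 lay between 0.33 and 0.66 in HF pigs (median 0.46) and between 0.67 and 1.05 in LF pigs (median 0.83), a difference of -0.35 ± 0.05 (SE, BH p = 3.26e-05). BCCIP, which binds BRCA2 and the cell cycle inhibitor CDKN1A, ran from 5.38 to 5.69 on HF (median 5.60) and from 5.74 to 6.07 on LF (median 5.86), and fell by 0.29. GALNT7, an enzyme that adds sugar to proteins in the Golgi, was the 1 gene of the 3 that rose, from 1.36 to 1.78 on LF (median 1.65) to 1.81 to 2.36 on HF (median 1.99), a difference of 0.40. All 3 differences were small in fold (1.22 to 1.32), and the pigs of a group lay close together.

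The widest fall among called genes was that of PTGDS, the synthase that makes prostaglandin D2 and is secreted as a lipid carrier. Its level ran from 2.002 to 5.944 in the HF pigs, with a median of 2.57, and from 4.43 to 7.46 in the LF pigs, with a median of 6.28. The difference was -2.76 ± 0.45 (SE, n = 12 and 12, BH p = 0.000109), a 6.78-fold lower signal on HF, and 7 LF pigs lay above every HF pig. SULT2A1, a sulfotransferase of steroids and bile acids, went from 2.42 to 4.66 on LF (median 3.13) to -0.53 to 2.77 on HF (median 1.09), a difference of -2.18 ± 0.37 (BH p = 0.000165), with 10 LF pigs above the whole HF group. The second lipocalin of the set, LCN2, which binds iron-carrying siderophores, ran from 0.39 to 2.77 on HF (median 1.13) and from 1.68 to 4.67 on LF (median 3.08) and fell by 1.78. Without the liver-rich pigs these 3 differences were -3.04, -2.03 and -2.08. Within the 2 scan days, the difference of PTGDS was -3.00 and -2.53, that of SULT2A1 -2.36 and -2.00, and that of LCN2 -2.20 and -1.36.

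CRYAB, a small heat shock protein, fell by 1.34 ± 0.24 (BH p = 0.000269), from a median of 6.58 on LF (range 5.07 to 7.86) to 5.12 on HF (4.67 to 6.81). MTMR7, a phosphoinositide phosphatase, fell by 1.39 and the histone gene HIST1H2AA by 1.31. AKR1E2, an aldo-keto reductase, was split within groups: it had a median of 0.38 but reached 2.91 on HF, and ran from 0.50 to 4.54 on LF with a median of 3.06. Its difference of -1.45 kept its call in 12 of the 24 fits that left out 1 pig, was lost with spike-in centring, and was -2.36 without the liver-rich pigs.

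Other falls shrank when the liver-rich pigs were left out. A1BG, a plasma glycoprotein made by liver, ran from 0.70 to 1.91 on HF (median 1.38) and from 0.73 to 7.42 on LF (median 2.78). For A1BG, 9 LF pigs lay above every HF pig. CYP2D25, a vitamin D3 25-hydroxylase, reached 5.79 on LF against -0.04 on HF, and METTL7B, a methyltransferase, 4.49 against -0.52. Their differences of -1.91, -1.66 and -1.46 became -0.72, -0.52 and -0.48 without the 4 pigs, with BH p of 0.449, 0.580 and 0.509 (limma), and none was called. The spread in that fit still held the liver-rich arrays of the low RFI line. These p-values therefore do not measure the spread of the high RFI pigs alone, and the lost calls do not show that the falls rested on the 4.

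**Figure D2:**
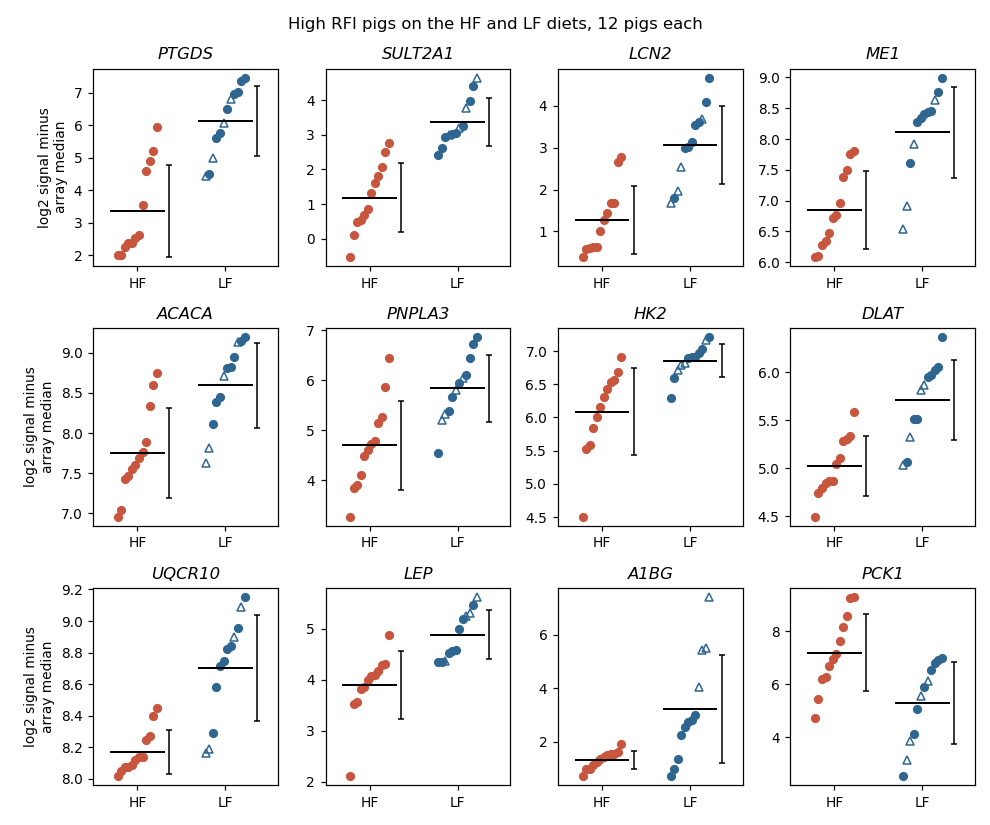
Level of 12 genes (log2 signal minus array median, each panel with its own axis) in the 12 HF and 12 LF pigs of the high RFI line; points are pigs, open triangles the 4 liver-rich LF pigs, horizontal bars means and vertical bars the SD. In A1BG the 4 triangles are the highest LF pigs, and 9 LF pigs lie above every HF pig. In ME1 and ACACA 2 of the triangles are the lowest LF pigs.

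Among named genes, rises were fewer than falls (277 against 1434) but alike in median fold (1.21 against 1.22). A fold of 2 was passed by 2 rises and 22 falls. PCK1, which makes glycerol backbone for triglyceride in fat cells and glucose in liver, was the gene with the largest rise: it ran from 4.74 to 9.29 on HF (median 7.03) and from 2.53 to 6.98 on LF (median 5.73), a difference of 1.90 ± 0.50 (BH p = 0.00965), and all 6 of its probes were called. The groups overlapped, with 6 HF pigs above every LF pig. Its difference was 1.59 without the liver-rich pigs (BH p = 0.0591). AQP3, a channel that passes water and glycerol, rose by 0.98, with HF pigs from 3.73 to 5.54 (median 4.92) and LF pigs from 3.11 to 4.62 (median 3.91), and 8 HF pigs lay above the whole LF group. HCAR1, the lactate receptor of fat cells that restrains lipolysis, rose by 0.70.

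Among other rises, CHODL, a membrane lectin, had HF pigs from 2.102 to 4.422 (median 3.70) and LF pigs from 1.38 to 3.27 (median 2.39), a difference of 1.14 (BH p = 0.00145). NFE2L3, a stress-responsive transcription factor, rose by 0.70 with 9 HF pigs above every LF pig. SPEF2 rose by 0.97, KAZALD1 by 0.75 and VWCE by 0.67. STEAP1, a metal reductase (0.83), and SLC22A16, a carnitine transporter (0.71), were called among all pigs but had BH p of 0.275 and 0.237 without the liver-rich ones. PHGDH, the first enzyme of serine synthesis, rose by 0.66, from a median of 5.83 on LF to 6.57 on HF.

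Genes of glucose uptake and glycolysis were lower on HF where they were called. Of 23 tested genes, 10 fell and none rose (background 13.7% lower), with a median of -0.25, and 7 to 9 fell under the other 5 scalings, with 1 gene rising under 75th percentile centring. SLC2A4, the insulin-regulated glucose transporter, ran from 5.20 to 7.67 on HF (median 6.43) and from 5.80 to 8.05 on LF (median 7.64), a difference of -0.81 ± 0.25 (BH p = 0.0270), and lost its call when only the 24 high RFI arrays were fitted. Hexokinase traps glucose in the cell: HK2 went from 6.29 to 7.21 on LF (median 6.90) to 4.51 to 6.91 on HF (median 6.24), a fall of 0.77, and HK1 fell by 0.68 with 8 LF pigs above every HF pig. Further down, ALDOA (-0.52), PFKM (-0.44), PGK1 (-0.39), PGAM1 (-0.34), ENO1 (-0.34), GAPDH (-0.30) and GPI (-0.22) were called. Of these, GPI lost its call under all 5 other scalings, ENO1 under 4 and GAPDH under 75th percentile centring. The basal transporter SLC2A1 differed by 0.03 and SLC2A3 by 0.34, and neither was called. Without the liver-rich pigs, 13 genes of the list fell. In glycogen metabolism, 2 of 20 tested genes fell, UGP2 by 0.35 and GSK3B by 0.35, each with 10 LF pigs above all HF pigs. These 2 of 20 are a smaller share than the background of 13.7%, and 1 gene rose under 4 of the other scalings.

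Called genes of the step from pyruvate into the citrate cycle were lower on HF too. Here 10 of 25 tested genes fell (40%, against 13.7% of all genes) and none rose, with a median of -0.22. Under the other scalings 9 or 10 fell, and 1 rose under each except spike-in scaling. MPC2, a subunit of the mitochondrial pyruvate carrier, fell by 0.72. In the pyruvate dehydrogenase complex, DLAT ran from 4.50 to 5.59 on HF (median 4.96) and from 5.04 to 6.37 on LF (median 5.85), a fall of 0.68 ± 0.13 (BH p = 0.000639), and 7 LF pigs lay above all HF pigs. PDHB fell by 0.71, PDHA1 by 0.54 and DLD by 0.36. PDK1, a kinase that shuts the complex off, fell by 0.63, whereas the kinase PDK4 had a difference of 0.88 that was not called, with 4 of its 11 probes called (named after its values were seen). In the cycle itself MDH2 (-0.51), CS (-0.35) and SUCLG1 (-0.31) fell.

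Fatty acid synthesis held the lowest median of all lists of pathway genes, -0.33. Of its 23 tested genes, 11 fell (47.8%, against 13.7% of all genes) while none rose. The counts under the other 5 scalings were 10 to 12, and 16 fell without the liver-rich pigs. Within scan days 1 and 2 the median was -0.47 and -0.23. ME1, which supplies NADPH, ran from 6.08 to 7.81 on HF (median 6.75) and from 6.534 to 8.999 on LF (median 8.38), with 9 LF pigs above every HF pig. The difference was -1.26 ± 0.27 (BH p = 0.00211), 2.40-fold lower on HF, and the 2 lowest LF pigs were liver-rich ones. ACLY went from a median of 10.4 on LF (9.51 to 10.9) to 9.40 on HF (7.45 to 10.73), a fall of 0.85 ± 0.23.

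ACACA, the step that commits acetyl-CoA to fatty acids, ran from 6.96 to 8.75 on HF (median 7.64) and from 7.62 to 9.19 on LF (median 8.76) and fell by 0.84 ± 0.21 (BH p = 0.00697). The groups overlapped, with 6 LF pigs above the HF range. ELOVL6 fell by 0.68, and SCD by 0.64, with all 11 of its probes called. 1 HF pig with a level of 8.00 lay below all others for SCD, where the LF pigs ran from 10.3 to 11.1. Carriers and helpers of the route fell too: ACSS2, which activates acetate, by 0.81, and SLC25A1, the citrate carrier, by 0.77.

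FASN was an exception on its brightest probe. That probe ran from 10.6 to 11.2 in both groups, with medians of 10.9 on HF and 11.1 on LF, and its difference of -0.14 was not called (BH p = 0.212). Of its 5 probes, however, 4 were called, all 5 were lower on HF, and without the liver-rich pigs the brightest was called as well, at -0.22 (BH p = 0.0645). The spread of that probe was narrow, with an SD of 0.17 on HF and 0.18 on LF.

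**Figure D3:**
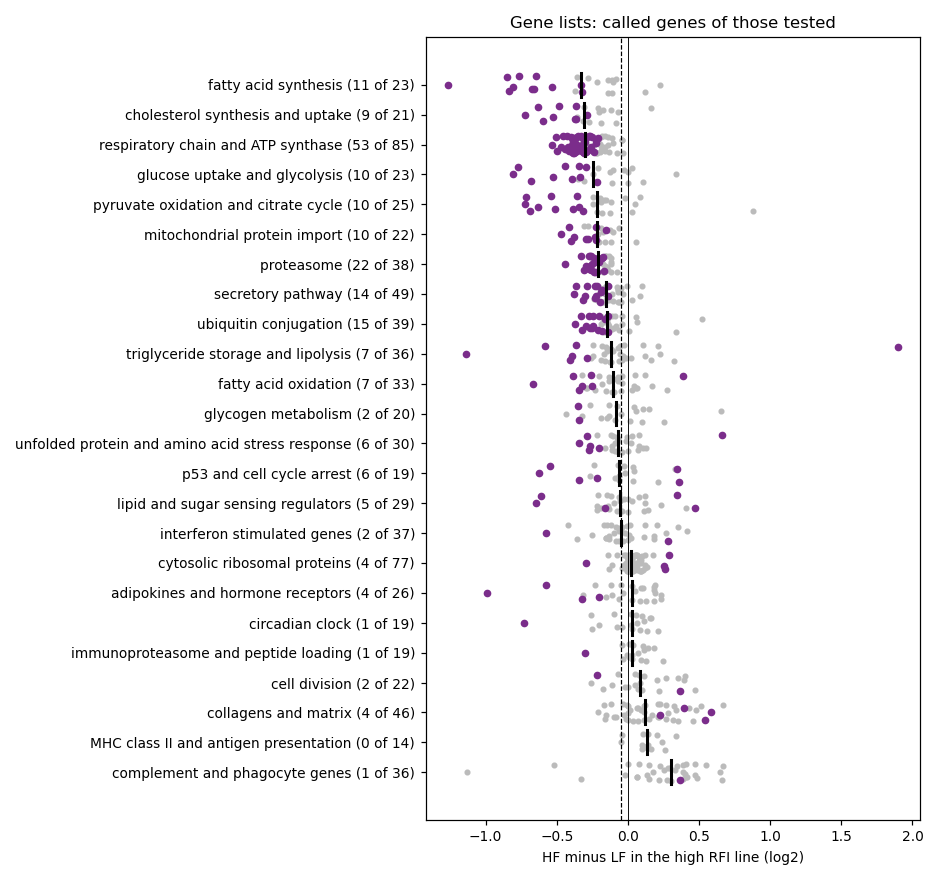
Difference of each tested gene between HF and LF in the high RFI line (log2), by gene list; purple points are called genes, grey points are not, thick bars are list medians and the dashed line is the median of all genes at -0.05. Lists of fatty acid synthesis (-0.33), cholesterol synthesis (-0.31) and the respiratory chain (-0.30) have the lowest medians, and complement and phagocyte genes the highest (0.30) with 1 of 36 called.

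Cholesterol synthesis and uptake genes were lower by a like amount. Of 21 tested genes, 9 fell (42.9%, against 13.7% of all genes) and none rose, with a median of -0.31. Under the other scalings 5 to 7 fell. MVK, mevalonate kinase, ran from 2.33 to 4.52 on HF (median 3.14) and from 3.11 to 4.44 on LF (median 3.91), and fell by 0.72 ± 0.23 (BH p = 0.0312). Its highest pig of all was on HF. TM7SF2 (-0.63) and MSMO1 (-0.52) were called too, and TM7SF2 missed the threshold without the liver-rich pigs (BH p = 0.0804).

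Triglyceride storage and lipolysis genes showed both directions. PCK1 rose, and 6 of the 36 tested genes fell, 3 to 5 under the other scalings. The shares of 2.78% higher and 16.7% lower were near those of all genes (2.64% and 13.7%). PNPLA3, a lipase of lipid droplets, had the largest fall: HF pigs ran from 3.28 to 6.44 (median 4.67) and LF pigs from 4.55 to 6.86 (median 5.88), a difference of -1.14 ± 0.29 (BH p = 0.00736). AGPAT2, which adds the second fatty acid to the glycerol backbone, fell by 0.58, and the droplet proteins CIDEA and CIDEC fell by 0.40 and 0.29, calls that were lost under 4 and 3 of the 5 other scalings. LPL, which frees fatty acid from blood lipoproteins, differed by -0.24 (BH p = 0.196). DGAT2, which adds the last fatty acid, differed by -0.19 (BH p = 0.459), and by -0.45 without the liver-rich pigs, where it was called (BH p = 0.0327).

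Fatty acid oxidation genes gave 1 rise (3.03%) and 6 falls (18.2%), against 2.64% and 13.7% of all genes, and 4 or 5 falls under the other scalings. CPT1A, the gate of fatty acid entry into mitochondria, was the riser among 33 tested genes: it ran from 4.56 to 5.58 on HF (median 5.12) and from 4.04 to 5.38 on LF (median 4.73), a difference of 0.39 (BH p = 0.0342) that was not called without the liver-rich pigs (BH p = 0.108) or with spike-in scaling. The peroxisomal HSD17B4 (-0.39), ETFA (-0.34), EHHADH (-0.33), DECR1 (-0.26) and ACOX2 (-0.25) fell, the last 2 under none of the other 5 scalings. The median of the list was -0.11 against -0.05 for all genes.

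Of 29 tested regulators of these routes 5 were called (17.2%, near the 16.3% of all genes), 2 higher and 3 lower. The balance turned with the scaling: 4 to 6 rose and 2 fell with 75th percentile, quantile, processed-signal and normexp scaling, and 0 rose and 2 fell with spike-in scaling. MLXIPL ran from 2.62 to 4.36 on HF (median 3.61) and from 2.84 to 4.91 on LF (median 4.25), and fell by 0.61 ± 0.18 (BH p = 0.0194), but was not called without the liver-rich pigs (-0.47, BH p = 0.135). PPARD, a nuclear receptor for fatty acids, fell by 0.64, and its partner RXRG rose by 0.47, a call that was likewise lost without those pigs (BH p = 0.119) and with spike-in scaling. SREBF1 differed by -0.14 (BH p = 0.429), PPARG, the master regulator of fat cells, by -0.22 (BH p = 0.126), PPARA by 0.41 (BH p = 0.292) and RXRA by -0.19 (BH p = 0.0737 but raw p over 0.01), and none was called. Without the liver-rich pigs RXRA was called, at -0.26 (BH p = 0.0123). SIRT1 (0.23) and OGT (0.14) were not called on their brightest probes, although 3 of the 5 probes of OGT were called and all 5 were higher on HF.

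Among adipokines and hormone receptors, 4 of 26 tested genes fell (15.4%, near the 13.7% of all genes) and none rose. Under the other scalings 3 or 4 fell, and 1 rose with 75th percentile, 3 with quantile and 2 with normexp scaling. LEP, leptin, the hormone of fat stores, ran from 2.11 to 4.87 on HF (median 4.03) and from 4.35 to 5.62 on LF (median 4.78), with a difference of -0.99 ± 0.21 (BH p = 0.00130) and 1.99-fold lower on HF. 6 LF pigs lay above all HF pigs, and it was called in each of the 24 fits that left out 1 pig. NAMPT, an enzyme of NAD synthesis, fell by 0.58 and the adiponectin receptors ADIPOR2 and ADIPOR1 by 0.32 and 0.20, the latter not called under 3 other scalings. ADIPOQ itself differed by 0.08 (BH p = 0.460), and IGF1R by 0.18 (BH p = 0.107).

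The respiratory chain and ATP synthase gave the largest number of calls. Of 85 tested genes, 53 fell (62.35%, against 13.7% of all genes) and none rose. All 85 had a negative difference, against 6647 of all 10479 genes. The number called ranged from 31 to 46 under the other scalings, where 82 to 85 were negative with 75th percentile, quantile and spike-in scaling, and it was 67 without the liver-rich pigs. The median of -0.30 was small but spread over every complex: NDUFAB1 (-0.47) and NDUFA6 (-0.46) of complex I, SDHD (-0.38) of complex II, UQCR10 (-0.53) and UQCRQ (-0.50) of complex III, COX5A (-0.43) of complex IV and ATP5A1 (-0.39) of the synthase. UQCR10 ran from 8.02 to 8.45 on HF (median 8.13) and from 8.16 to 9.15 on LF (median 8.78), with 9 LF pigs above all HF pigs and a BH p of 0.000414. Cytochrome c, CYCS, which shuttles electrons to complex IV, fell by 0.51 ± 0.12. Mitochondrial protein import went with it: 10 of 22 tested genes fell (45.45%, against 13.7% of all genes), 6 to 8 under the other scalings. Among them were TIMM17A (-0.47), DNAJC19 (-0.40) and the chaperonin pair HSPE1 and HSPD1 (-0.42 and -0.30).

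The proteasome, which degrades proteins tagged with ubiquitin, was lower on HF by small differences. Of 38 tested genes, 22 fell (57.9%, against 13.7% of all genes) and none rose. All 38 were negative with median centring and with 75th percentile, quantile and spike-in scaling. The median was -0.21, and 10 to 15 genes were called under the other scalings. PSMD14, which strips ubiquitin from substrates, had the largest fall, from a range of 4.25 to 5.11 on LF (median 4.71) to 3.63 to 4.96 on HF (median 4.23), a difference of -0.44 ± 0.11 (BH p = 0.00523). PSMD2, a docking subunit, ran from 5.91 to 6.46 on HF (median 6.26) and from 6.25 to 6.86 on LF (median 6.58), and 9 LF pigs lay above all HF pigs for a fall of only 0.33. PSMD12 fell by 0.31 and the core subunit PSMA5 by 0.21, the latter not called with quantile or spike-in scaling.

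The inducible immunoproteasome and the peptide loading genes did not share this: 1 of 19 tested genes was called (5.26%, against 16.3% of all genes). It was the chaperone CANX at -0.30 (not with quantile or normexp scaling), and the median of the list was 0.03. Among ubiquitin-conjugating genes, 15 of 39 fell (38.5%, against 13.7% of all genes) and none rose. Under the other scalings 6 to 10 fell, and 8 without the liver-rich pigs. UBE2L3, an E2 enzyme, had pigs close together, from 5.37 to 5.81 on HF (median 5.62) and from 5.72 to 6.12 on LF (median 5.97), a difference of -0.37 ± 0.06 (BH p = 0.000109), with 10 LF pigs above all HF pigs. UBE2T fell by 0.33 and UFM1, a ubiquitin-like modifier, by 0.32.

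Genes of the secretory pathway fell in 14 of 49 cases (28.6%, against 13.7% of all genes), 5 to 10 under the other scalings and 9 without the liver-rich pigs. The largest falls were those of SAR1B (-0.38), SEC22B (-0.36) and SAR1A (-0.31), which serve transport from the endoplasmic reticulum. In the unfolded protein and amino acid stress list, 5 of 30 fell (16.7%, near the 13.7% of all genes) and PHGDH rose, and 2 or 3 fell under the other scalings. ATF4, the transcription factor of that response, fell by 0.34, and its target ASNS by 0.29, a call held in 15 of the 24 fits that left out 1 pig and lost under 3 other scalings, while the chaperone HSPA5 differed by -0.09 and was not called. Genes of the cytosolic ribosome, in contrast, fell in 1 of 77 cases (1.299%, against 13.7% of all genes), with a median of 0.03. The 3 that rose were a share of 3.896%, near the 2.64% of all genes. RPL9 (0.29), RPL3 (0.26) and RPL13A (0.26) rose, RPS19BP1 fell by 0.29, and none of the 3 rises remained without the liver-rich pigs. The fall was in a binding protein of a ribosomal protein. After quantile normalization 14 genes of this list rose, and with spike-in scaling 2 did.

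**Figure D4:**
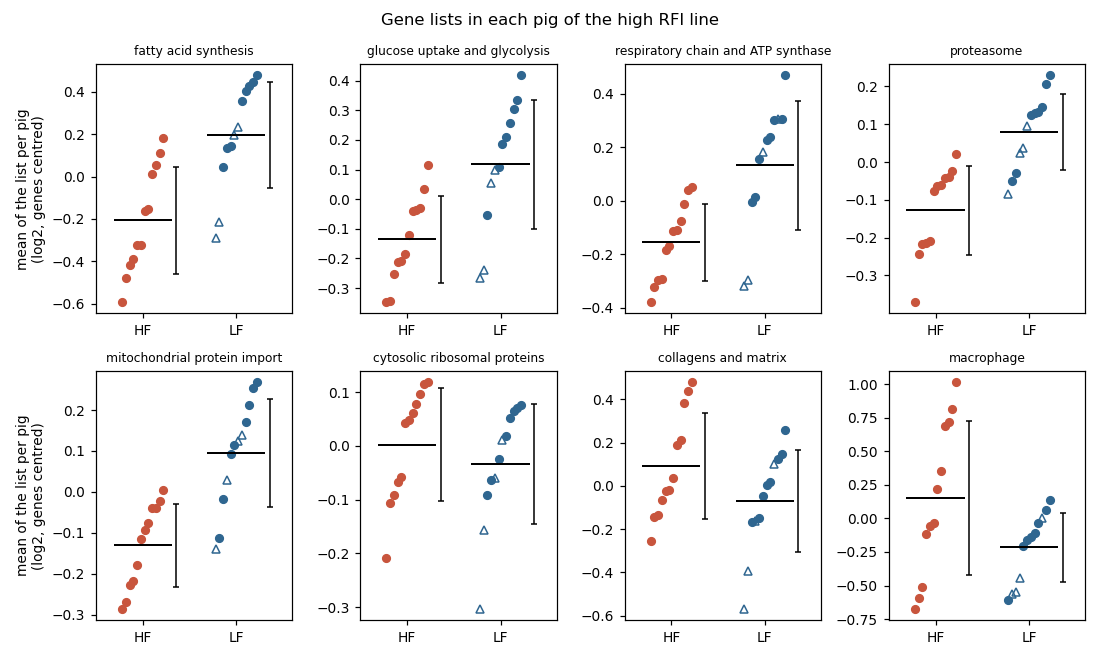
Mean of each list in each high RFI pig (log2, every gene centred over the pigs), 12 HF and 12 LF pigs; open triangles are the 4 liver-rich LF pigs, horizontal bars means and vertical bars the SD. For the proteasome and mitochondrial import lists 9 LF pigs lie above all HF pigs, the LF pigs of the ribosomal list stay within or below the HF range, and 6 HF pigs lie above all LF pigs for macrophage markers.

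Matrix genes were called in the other direction. Of 46 tested collagens and matrix genes, 4 rose (8.70%, against 2.64% of all genes) and none fell, with a median of 0.12, and 2 to 8 rose under the other scalings. COL6A3, a chain of collagen VI around fat cells, ran from 6.53 to 7.36 on HF (median 7.001) and from 5.90 to 7.08 on LF (median 6.28), a difference of 0.58 ± 0.15 (BH p = 0.00781), with 8 of its 9 probes called. FN1, fibronectin, rose by 0.55, COL6A2 by 0.40 and COL4A2, of the basement membrane, by 0.23, the latter in 7 of the 24 fits that left out 1 pig. FN1 and COL4A2 were not called with spike-in scaling. Without the liver-rich pigs none of the list was called, with COL6A3 at 0.42 (BH p = 0.0967) and FN1 at 0.49 (BH p = 0.138). Of 11 fibroblast markers 10 had a positive difference, with a median of 0.25 (0.10 without those pigs), and the part of these cells in the result was not tested.

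Complement and phagocyte genes had positive differences that rarely passed the threshold. The median of 36 tested genes was 0.30, the highest of the pathway lists, yet 1 gene (2.64% is the background of rises) was called, ARRB2, an adaptor of receptor signalling, at 0.37, and that call was lost without the liver-rich pigs (BH p = 0.154) and with spike-in scaling. C1QA, the first complement component, ran from 3.21 to 6.16 on HF (median 4.54) and from 3.22 to 4.86 on LF (median 4.16), and its difference of 0.66 ± 0.36 had a BH p of 0.216. C1QB (0.65) and C1QC (0.67) were alike, and 5 HF pigs lay above all LF pigs for each of the 3. The 7 tested macrophage markers had a median difference of 0.40 with no call, their mean ran from -0.67 to 1.01 in HF pigs and from -0.61 to 0.14 in LF pigs, and 6 HF pigs lay above all LF pigs. The part of macrophages in the complement values was not tested. IL10 (0.39) and CYBA (0.33) were not called. CFB, a complement factor that liver also makes, differed by -1.13 among all pigs and by 0.003 without the liver-rich ones.

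Antigen presentation by MHC class II gave no call in 14 genes (limma, none with a raw p under 0.05). Of 37 interferon stimulated genes, 2 were called (5.4%, against 16.3% of all genes). IRF7, a driver of interferon production, fell by 0.58 and IFI16, a DNA sensor, rose by 0.28. Both calls were lost without the liver-rich pigs (BH p = 0.150 and 0.0835). Of 19 tested p53 and cell cycle arrest genes, 4 fell and 2 rose (31.6% called, against 16.3% of all genes). CDKN1A fell by 0.62 ± 0.15, from a median of 7.69 on LF (6.94 to 8.22) to 7.07 on HF (6.50 to 7.72), and GADD45A by 0.54. TP53INP1 (0.36) and BTG2 (0.35) rose, the former not called without the liver-rich pigs (BH p = 0.208) and neither with spike-in scaling. Cell division genes gave 1 rise (MCM2, 0.37) and 1 fall (MKI67, -0.21) among 22 (9.09% called), neither called without the liver-rich pigs or with spike-in scaling. The clock factor NPAS2 fell by 0.73, and it alone was called among 19 clock genes (5.26%), though not when only the 24 high RFI arrays were fitted.

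Markers of other tissues near this depot were checked because the depot lies around the kidney. Of 10 kidney markers 1 was tested, AQP2, a water channel, and it was called at -0.57, with HF pigs from 2.23 to 3.43 (median 2.75) and LF pigs from 2.26 to 3.98 (median 3.51). None of 7 adrenal markers was called (median -0.01). The muscle myosin MYH7 (-0.56) and the red cell anion exchanger SLC4A1 (-0.36) were the only calls of their lists of 8 and 5, and the fat cell markers LEP and CIDEC of 9. The shares that fell were 12.5%, 20% and 22.2%, against 13.7% of all genes. No muscle marker was called with 75th percentile, quantile, processed-signal or spike-in scaling, or without the liver-rich pigs. Of 4 tested markers of brown or beige fat, CIDEA and COX7A1 (-0.35) fell (50%, against 13.7% of all genes). Both were called with spike-in scaling, and neither with 75th percentile, quantile, processed-signal or normexp scaling. HF pig 4 stood high in neutrophil genes, with S100A9 at 3.58 against a median of 0.09, and LF pig 6 in B cell genes, with CD79B at 1.89 against a median of -0.93. Whether these cells or tissues had a part in any result was not tested.

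The diet difference of the high RFI line was not shown to differ from that of the low RFI line. In the low RFI line 5383 probes (13.3%) were called, 3057 of them shared, which is 49.9% of the calls of the high RFI line and 56.8% of those of the low RFI line. Of the 6121 calls, 6023 had the same sign in the low RFI line. The test of the difference itself called 0 of 40510 probes (0%, smallest BH p 0.9999), with 903 probes (2.23%) at a raw p under 0.05, and an ordinary ANOVA with both factors also gave 0. PTGDS differed by -2.76 and -2.64 in the high and low RFI lines, SULT2A1 by -2.18 and -1.96, ME1 by -1.26 and -1.23, LEP by -0.99 and -0.89, and PCK1 by 1.90 and 1.55. The median of the fatty acid synthesis list was -0.33 in both lines, and that of the respiratory chain -0.30 and -0.27. Not all list medians matched: interferon stimulated genes were at -0.05 and 0.24, with 24 and 6 of 37 negative. Cytosolic ribosomal genes were at 0.03 and -0.02, with 14 and 56 of 77 negative. Differences of lists between the lines were not tested.

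The genes with the smallest raw p for a difference between the lines were SUB1, SLC48A1, SPATA1, TRIM63 and TMC7, and none passed the correction. SLC48A1, a heme transporter, ran from 3.04 to 3.98 on HF (median 3.26) and from 3.12 to 4.47 on LF (median 4.01), a fall of 0.65 in the high RFI line, whereas in the low RFI line HF was higher by 0.09 (difference -0.74, raw p = 0.000652, BH p = 0.9999). SPATA1 rose by 0.32 against -0.11. TRIM63, a ubiquitin ligase of muscle, was not called in the high RFI line, at 0.43 against 1.40. TMC7 differed by 0.28 against -0.74, and SUB1, a transcription coactivator, by 0.14 against -0.18. AKR1E2, at -1.45 against -0.34, and A1BG, at -1.91 against -0.97, had raw p of 0.126 and 0.274 for that difference.

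**Figure D5:**
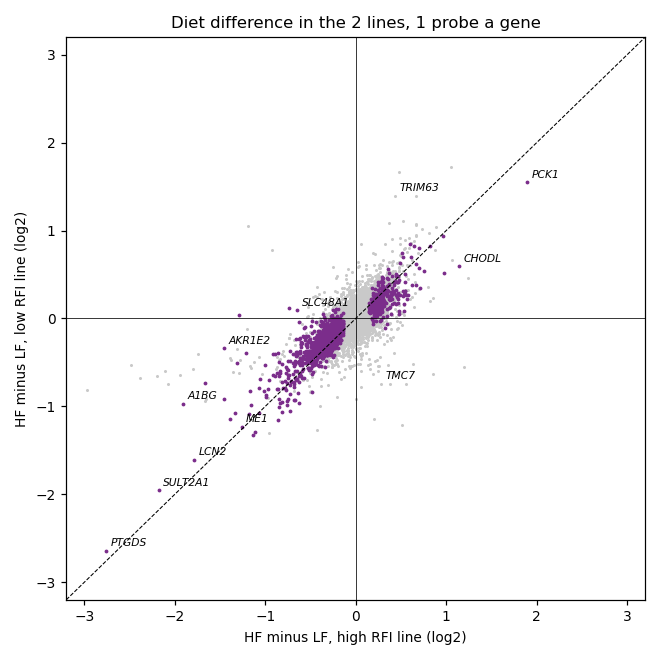
Difference between HF and LF (log2) in the low RFI line against that in the high RFI line, 1 point a gene; purple points are the 1711 genes called in the high RFI line, grey points the others, and the dashed line marks equal differences. Most called genes lie near the dashed line, with PTGDS, SULT2A1 and PCK1 at its ends and SLC48A1 and AKR1E2 away from it, and no point differs between lines after correction.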

How the data were processed

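Total RNA of PRAT from 48 pigs was labelled with Cy3 and hybridised by the authors, 1 pig per array, to a custom porcine array of 60306 spots. Spot intensity was read by the authors with Feature Extraction 10.7.3.1 and deposited without normalization, together with spot flags that are deposited as a score of 0 or 1. The authors also deposited log2 values for 38142 probes, which they filtered and centred on each array's median (R 2.10.0 per the labels). Each of these entries equals log2 of the median signal of 1 spot minus a constant of its array, but only 2 carry that spot's name, so genes were named from the scanner files instead.

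Here log2 of the deposited median signal minus the array median over noncontrol probes was used. Flagged spots were left out, and 40510 probes well above background on all 12 arrays of at least 1 group, with at least 8 values a group, were tested. Of these, 21629 carried a symbol through the gene name, a synonym or an accession, for 10479 genes. The main fit (limma 3.58.1 in R 4.3.3) held 4 group means over 48 arrays, as in the methods' two-way ANOVA, and the HF minus LF contrast of the high RFI line was taken from it. Moderated p-values were adjusted by Benjamini-Hochberg over all probes. The scripts were tested on simulated data. Python 3.11.15, numpy 2.4.6, pandas 2.3.3 and matplotlib 3.10.9 were used for the rest.

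Named genes were the 10 called genes that rose most, the 10 that fell most, the 3 called genes of each list with the largest difference, a fixed panel, genes whose groups did not overlap, and the 5 with the smallest raw p between lines, and other list members were named after their values were seen. Results of some single genes are left out of the text. The members and lists were chosen with earlier results of these data known, and the liver list was added after seeing the data. The respiratory chain and ribosomal lists were taken by symbol prefix, so they hold assembly factors, a binding protein and pseudogene names. Lists were described by counts and medians, with no test. Nothing in the sources ties same-numbered pigs of the 2 diets to each other. Alternatives were 5 other scalings or background corrections, filters, blocks, weights, thresholds and leaving out pigs. The number of arrays limits the precision, and the median standard error of a difference was 0.08 on the log2 scale.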

Additional observations from a re-analysis of the deposited data

How the results depend on the processing

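The count of 6121 called probes (1932 higher and 4189 lower on HF) was recomputed under each alternative. With 75th percentile centring, 3123 were higher and 2790 lower. Spike-in centring gave 3053 in all, 875 higher and 2178 lower. The higher calls numbered 3058 after quantile normalization, 3142 with the processed signal and 3087 with normexp. A fold over 1.5 left 447, 94 higher and 353 lower. Among settings chosen after seeing the data, 919 were higher without the 4 liver-rich LF pigs, scan day 1 alone gave 2080 (402 higher, 1678 lower), and scan day 2 alone gave 9 (4 higher, 5 lower). The cause of these shifts was not tested, although single days and the repeat without the 4 liver-rich pigs hold fewer pigs. Leaving out 1 pig gave 5177 (without LF pig 8) to 6620 (without LF pig 5) in all, 1565 to 2172 higher and 3438 to 4507 lower, and 1136 of 1711 called genes stayed called in all 24 such fits. The difference between lines called 0 probes under each setting it was fitted in, which leaves out the fit of 24 arrays and the fold of 1.5.

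The replicate numbers were not taken to pair the pigs: deviations of same-numbered HF and LF pigs correlated at a median of 0.16 (-0.06 to 0.32, 7 of 12 over 0.1; 0.08 for other numbers on the same slide and -0.02 on other slides), and 4 of 12 HF pigs correlated best with their own number. With the replicate block 7665 probes were called, 6021 of the 6121 among them. The slide block gave 6939 and the scan day block 6325. No named gene changed sign under an alternative other than scan day 1 alone, where ADIPOQ was at -0.007756 and TMC7 at -0.37. Of 108 named genes, 11 calls were lost with spike-in centring, 46 at a fold over 1.5, and 21 lost and 3 gained without the liver-rich pigs. For 37104 of the tested probes no array of the 48 was near background, and levels of the others hold background on some arrays.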

Other observations

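Of the 40510 probes tested, 18881 carry no gene name here. Among them 1373 were higher on HF and 1187 lower in the high RFI line, whereas named genes were mostly lower, so the balance of directions given for genes does not describe the unnamed probes. The scan days gave opposite counts in the lines: within day 1, 2080 probes were called in the high RFI line and 1 in the low RFI line, and within day 2, 9 and 1980. No probe passed a BH p of 0.08 for a diet difference that varied with both day and line (limma, 75 with a raw p under 0.01), so these counts are not shown to differ between days or lines.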
